A study of Mus musculus with 6 samples.

Results

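Txnip, 4 genes of its arrestin-domain relatives (Arrdc1, Arrdc2, Arrdc3 and Arrdc4) and the 4 genes of the thioredoxin system (Txn1, Txn2, Txnrd1 and Txnrd2) are described here across islets of mice with and without the Wtap-βKO label. The 9 genes were picked by name from the 54532 genes of the deposited expression table, and each name occurred once. They were picked with the measured difference between these same islets in view. The differences between the groups are therefore descriptions and carry no test.

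The study sequenced poly-A RNA of pancreatic islets from mice 7 weeks old, in 3 samples labelled Wtap-βKO and 3 samples labelled Wtapflox/flox. Wtap flox/flox mice carry a Wtap gene flanked by recombination sites. The Wtap-βKO label names a deletion of Wtap in the insulin-producing β cells, and the driver of the recombinase and the strain are not given in the sources used here. Each sample combined the islets of 3 mice, so 1 value stands for a pool. The WTAP protein holds the m6A methyltransferase of the nucleus to its RNA substrates, where N6-methyladenosine is made. Values are FPKM, fragments per kilobase of gene scaled to depth, as the authors deposited them, given as mean ± SD with n = 3 in each group. The FPKM correspond to between 16353297 and 18682745 reads per library.

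Thioredoxins are small proteins that reduce disulfide bonds in other proteins, and thioredoxin reductases recharge them with electrons from NADPH. TXNIP, the thioredoxin-interacting protein, binds reduced thioredoxin and blocks it. It is also an α-arrestin, a family of adaptors that bring ubiquitin ligases of the NEDD4 type to membrane proteins, and it drives the uptake of glucose transporters from the cell surface. In β cells Txnip is known as a strongly glucose-induced gene whose excess promotes cell death. Transcription of Txnip and of its relative Arrdc4 is switched on by ChREBP or MondoA with their partner MLX, which bind a pair of E-box-like elements, the carbohydrate response element.

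The bases before the starts of Txnip and Arrdc4 are shown because these 2 members stood furthest from the rest and are background examples of carbohydrate-response genes. Both are from the RefSeq table for GRCm38.p6, run 5′ to 3′ on the gene's own strand and end 1 base before the start. The stretch of Txnip is chr3:96557707-96557956 on the plus strand, and that of Arrdc4 is chr7:68749239-68749488 on the minus strand. Capitals mark every match to CACGNG or CCAAT on either strand.
Txnip: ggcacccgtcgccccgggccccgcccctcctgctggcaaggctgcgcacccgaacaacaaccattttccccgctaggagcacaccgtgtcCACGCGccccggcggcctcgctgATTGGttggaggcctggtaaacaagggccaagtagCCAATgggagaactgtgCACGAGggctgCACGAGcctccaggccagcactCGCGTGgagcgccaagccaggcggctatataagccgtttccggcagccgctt
Arrdc4: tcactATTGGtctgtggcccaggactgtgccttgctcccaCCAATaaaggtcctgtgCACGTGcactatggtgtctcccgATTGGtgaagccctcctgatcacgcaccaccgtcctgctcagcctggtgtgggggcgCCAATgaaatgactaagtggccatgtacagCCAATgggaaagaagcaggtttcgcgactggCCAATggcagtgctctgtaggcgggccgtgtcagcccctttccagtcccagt
In the Txnip stretch the letters CACGNG matched at -160, -85, -74 and -52 from the start, counted at the first base of each match. The matches at -85 and -74 lie on the same strand with 5 bases between them, the spacing of a carbohydrate response element. The promoter windows of RefSeq, from 250 bases before to 50 after a start, held CACGNG at least once in 27.5% of 32851 windows and 4 or more times in 0.396%. A pair on the same strand with 5 bases between its members was found in 16 windows, 0.0487% of all. Among the 13 windows of the 9 members, only that of Txnip held it. Pairs on opposite strands were not searched for, so this is not the share of windows with a carbohydrate response element. In the Arrdc4 stretch CACGNG matched once, at -193, as the palindrome CACGTG, which 7.15% of windows held. Arrdc4 also had 6 matches to CCAAT, the box bound by NF-Y, and 4 or more were found in 1.06% of windows. Txnip had 2, and at least 1 was found in 37.4% of windows. A match is a stretch of letters, and whether any protein bound there was not measured.

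**Figure D1:**
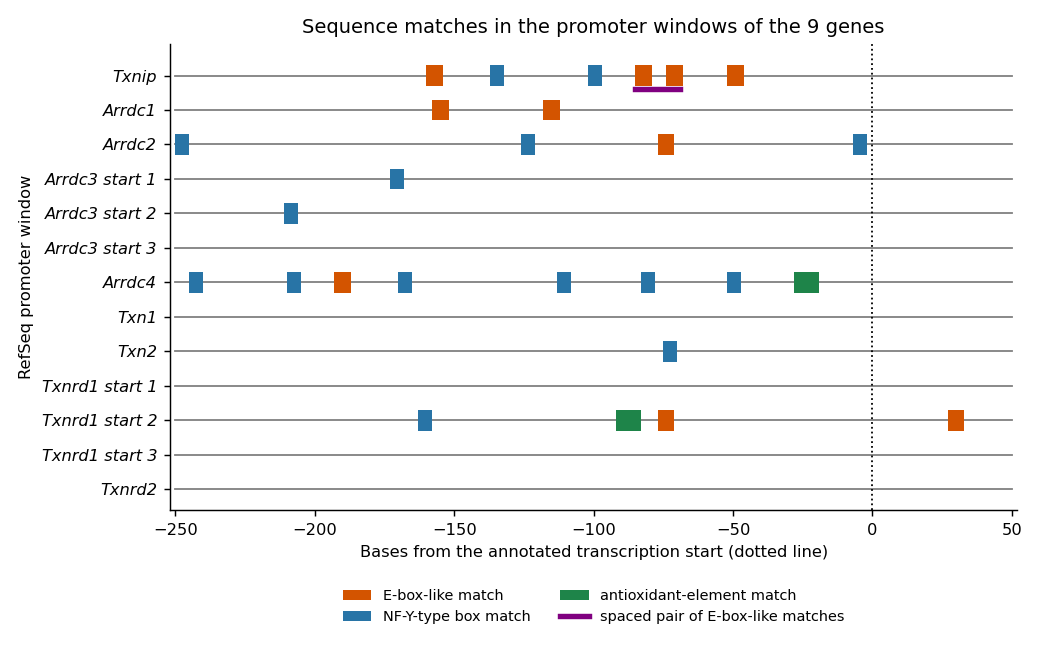
Matches to the E-box-like letters, the NF-Y-type box and the antioxidant element on either strand in the RefSeq promoter windows of the 9 members, drawn by distance from the start in bases, from 250 before to 50 after it. Txnip has 4 E-box-like matches, and Arrdc4 has 6 matches to the NF-Y-type box.

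The same windows were searched for TGACNNNGC, the core of the antioxidant response element bound by NRF2, which occurs in 12.4% of windows. It matched once in Arrdc4, at -28, and once in the window before the second of the 3 RefSeq starts of Txnrd1, at -92. The windows of Txn1 and Txnrd2 held none of the letters searched.

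Wtap, the gene named by the label, showed no loss of reads in the islets so labelled. It read 11.2, 11.9 and 12.3 FPKM there, against 10.5, 11.4 and 11.6 FPKM in Wtap flox/flox libraries, and the groups overlapped. Its log2 fold change was 0.07 with an SE of 0.063 (limma, adjusted p = 0.475, and 0.0679 to 0.797 over the alternatives). The values cover the whole gene and all cells of the islets. They cannot show whether a stretch of Wtap was removed in the β cells. Every direction given here is therefore that of the libraries labelled Wtap-βKO. The islet label matched the markers: 10 β-cell markers summed to 81970 to 92558 FPKM in libraries labelled Wtap-βKO and 135142 to 155400 FPKM in Wtap flox/flox libraries. Most of each sum came from Ins2, which did not itself pass the test (adjusted p = 0.190 by limma).

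Txnip had the highest level of the 9 genes in all 6 libraries. It read 393, 326 and 345 FPKM in the libraries labelled Wtap-βKO, against 148, 170 and 134 FPKM in Wtap flox/flox libraries. The lowest library labelled Wtap-βKO lay well above the highest Wtap flox/flox library. The means were 355 ± 34.9 FPKM in libraries labelled Wtap-βKO and 151 ± 17.9 FPKM in Wtap flox/flox libraries (SD, n = 3 each), a 2.35-fold difference and a log2 fold change of 1.23 (SE 0.11). The values rest on 18209 to 23167 reads per library labelled Wtap-βKO and 7471 to 8382 reads per Wtap flox/flox library. Ordered by FPKM among all genes of a library, Txnip stood at places 40, 58 and 49 in libraries labelled Wtap-βKO and at places 130, 106 and 151 in Wtap flox/flox libraries. Of the 15927 genes tested, 82 had a higher log2 fold change. In bulk islets, a change in the number of cells that make a transcript and a change in its amount per cell cannot be told apart.

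Txnip lies at chr3:96557957-96561883 on the plus strand (GRCm38). Its span overlaps Gm15441, an annotated antisense RNA, and the library protocol marks no strand, so reads of the 2 genes cannot be told apart where they overlap. Gm15441 read 1.15 ± 0.399 FPKM in libraries labelled Wtap-βKO and 0.773 ± 0.118 FPKM in Wtap flox/flox libraries (SD, n = 3 each). These levels are small beside those of Txnip.

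**Figure D2:**
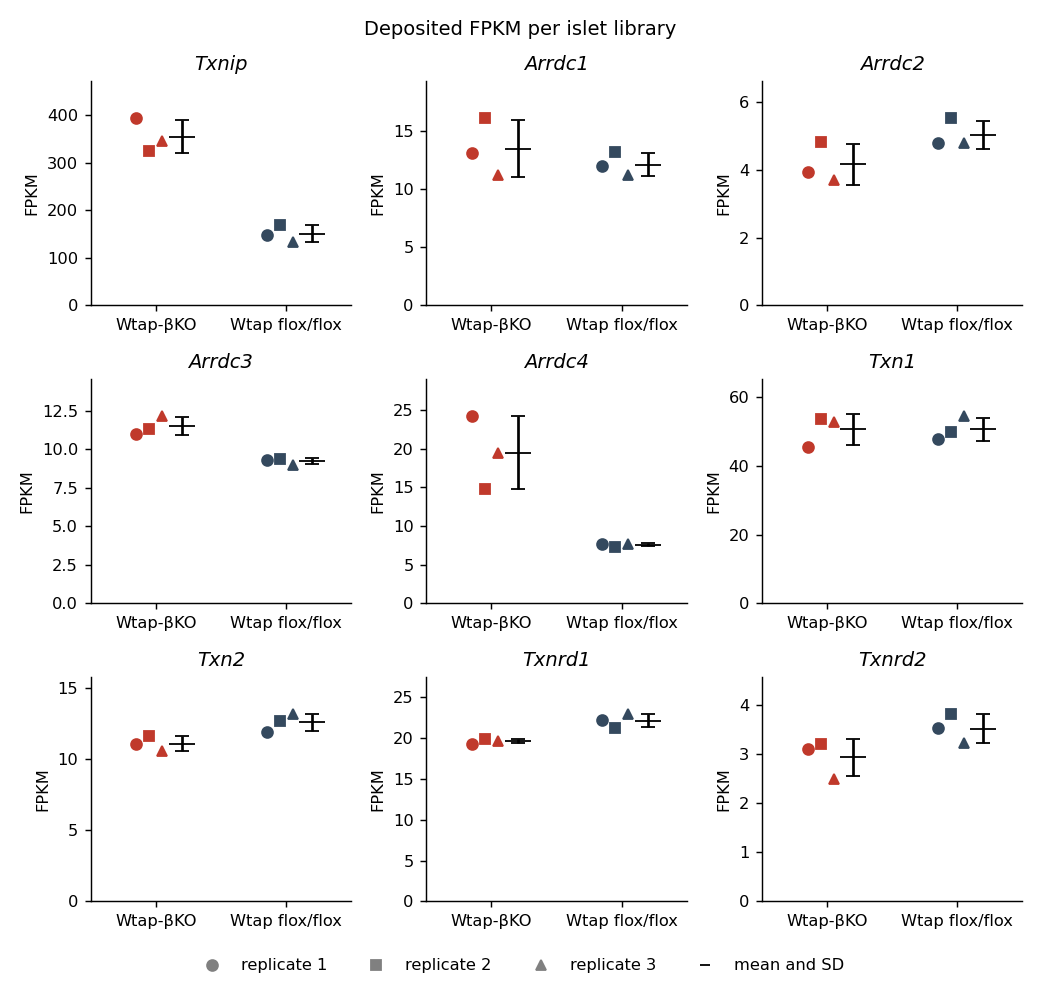
FPKM of the 9 members in every library, 1 panel per gene with its own axis from 0, with libraries labelled Wtap-βKO left of Wtap flox/flox libraries, points for replicates 1 to 3 and a bar for mean ± SD. Txnip and Arrdc4 are well apart between the groups, and Txn1 lies at the same level in both.

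Arrdc4 encodes an α-arrestin close to TXNIP that likewise acts on glucose transporters. It read 24.2, 14.8 and 19.5 FPKM in the libraries labelled Wtap-βKO, against 7.64, 7.35 and 7.71 FPKM in Wtap flox/flox libraries. The groups did not overlap, and the libraries labelled Wtap-βKO were the more scattered of the 2 groups. Arrdc4 averaged 19.5 ± 4.70 FPKM in libraries labelled Wtap-βKO and 7.57 ± 0.191 FPKM in Wtap flox/flox libraries, a 2.57-fold difference, with a log2 fold change of 1.23 (SE 0.16). Its log2 fold change stood directly below that of Txnip, with 83 of the tested genes above it. This order depends on the 1 added to FPKM before the log. With 0.1 added instead, the log2 fold change was 1.32 for Arrdc4 and 1.24 for Txnip. By limma voom it was 1.33 for Arrdc4 and 1.24 for Txnip. Arrdc4 is at chr7:68736995-68749241 on the minus strand, and 469 to 1841 reads per library lie behind its values.

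Txnip and Arrdc4 kept about the same proportion in the 2 groups. Txnip over Arrdc4 was 16.3, 22.0 and 17.7 in libraries labelled Wtap-βKO and 19.3, 23.1 and 17.4 in Wtap flox/flox libraries. The ranges overlapped. Within the group labelled Wtap-βKO, replicate 1 was the highest and replicate 2 the lowest for both genes. Replicate 2 labelled Wtap-βKO was also the library that differed most from its group over genes at large. No such common order was seen in Wtap flox/flox libraries, where replicate 2 was the highest for Txnip and the lowest for Arrdc4.

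Arrdc3, an α-arrestin known to lower β-adrenergic receptors at the cell surface, had a small difference. It read 11.0, 11.3 and 12.1 FPKM in libraries labelled Wtap-βKO, against 9.29, 9.41 and 9.02 FPKM in Wtap flox/flox libraries. The groups did not overlap. Arrdc3 averaged 11.5 ± 0.577 FPKM in libraries labelled Wtap-βKO and 9.24 ± 0.201 FPKM in Wtap flox/flox libraries, a 1.24-fold difference with a log2 fold change of 0.29 (SE 0.059). An RNA on the opposite strand, 1700023H06Rik, lies within Arrdc3 and averaged 0.577 FPKM in libraries labelled Wtap-βKO and 1.02 FPKM in Wtap flox/flox libraries.

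Arrdc1, whose protein recruits the vesicle-budding machinery at the plasma membrane, read 13.1, 16.0 and 11.2 FPKM in libraries labelled Wtap-βKO, against 11.9, 13.2 and 11.2 FPKM in Wtap flox/flox libraries. The groups overlapped, with a log2 fold change of 0.13 (SE 0.13) that dropped to 0.005 when replicate 2 labelled Wtap-βKO was left out and stood at 0.24 when replicate 3 was. Arrdc2, another α-arrestin, read 3.94, 4.84 and 3.71 FPKM in libraries labelled Wtap-βKO, against 4.79, 5.52 and 4.80 FPKM in Wtap flox/flox libraries. These groups overlapped through replicate 2 of the libraries labelled Wtap-βKO, and the log2 fold change was -0.23 (SE 0.10). Without that replicate the log2 fold change of Arrdc2 was -0.32, and only then did it pass the threshold among the 18 alternatives run for it.

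The make-up of the arrestin-domain group differed between the groups. The 4 Arrdc genes summed to 52.2, 47.0 and 46.6 FPKM in libraries labelled Wtap-βKO and 33.7, 35.4 and 32.7 FPKM in Wtap flox/flox libraries. Arrdc4 made up 46.3%, 31.5% and 41.8% of that sum in libraries labelled Wtap-βKO and 22.7%, 20.7% and 23.6% in Wtap flox/flox libraries. Arrdc1 had the highest mean of the 4 in Wtap flox/flox islets, and Arrdc4 in islets labelled Wtap-βKO. Arrdc2 had the lowest mean in both.

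Txn1 encodes the cytosolic thioredoxin that TXNIP binds. It read 45.3, 53.4 and 52.8 FPKM in libraries labelled Wtap-βKO, against 47.7, 49.8 and 54.3 FPKM in Wtap flox/flox libraries. The groups overlapped over nearly their whole ranges, with means of 50.5 ± 4.53 FPKM in libraries labelled Wtap-βKO and 50.6 ± 3.35 FPKM in Wtap flox/flox libraries and a ratio of 0.998. No reads were listed for its processed copy Txn-ps1.

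The proportion of the inhibitor to its target transcript moved with Txnip. Txnip over Txn1 was 8.69, 6.10 and 6.54 in libraries labelled Wtap-βKO and 3.10, 3.42 and 2.48 in Wtap flox/flox libraries, without overlap. The means of this ratio were 7.11 ± 1.39 in libraries labelled Wtap-βKO and 2.997 ± 0.477 in Wtap flox/flox libraries (SD, n = 3 each). Both terms are transcript levels per length, and protein was not measured. Txnip made up 70.7% to 75.02% of the summed FPKM of the 9 genes in libraries labelled Wtap-βKO and 51.6% to 58.0% in Wtap flox/flox libraries.

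Txn2, the mitochondrial thioredoxin, read 11.1, 11.6 and 10.6 FPKM in libraries labelled Wtap-βKO, against 11.9, 12.7 and 13.1 FPKM in Wtap flox/flox libraries. All 3 libraries labelled Wtap-βKO lay below all 3 Wtap flox/flox libraries, with a log2 fold change of -0.17 (SE 0.063). Txn1 over Txn2 was 4.08 to 5.002 in libraries labelled Wtap-βKO and 3.93 to 4.13 in Wtap flox/flox libraries, with overlap.

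Txnrd1, the cytosolic reductase, read 19.3, 19.9 and 19.7 FPKM in libraries labelled Wtap-βKO, against 22.2, 21.3 and 22.9 FPKM in Wtap flox/flox libraries. Txnrd2, the mitochondrial reductase, read 3.11, 3.20 and 2.50 FPKM in libraries labelled Wtap-βKO, against 3.54, 3.81 and 3.22 FPKM in Wtap flox/flox libraries. Neither pair of groups overlapped, although for Txnrd2 the nearest libraries, 3.20 and 3.22 FPKM, all but touched. The log2 fold changes were -0.16 (SE 0.052) for Txnrd1 and -0.20 (SE 0.10) for Txnrd2, which was -0.12 without replicate 3 labelled Wtap-βKO. Txnrd1 over Txnrd2 was 6.76 ± 0.945 in libraries labelled Wtap-βKO and 6.32 ± 0.770 in Wtap flox/flox libraries, with overlap. The unstranded libraries leave Txnrd1 uncertain where Gm38560 and Gm47073 lie over it on the opposite strand. Eid3 lies over Txnrd1 on the same strand. Each of these overlapping genes read under 3 FPKM.

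**Figure D3:**
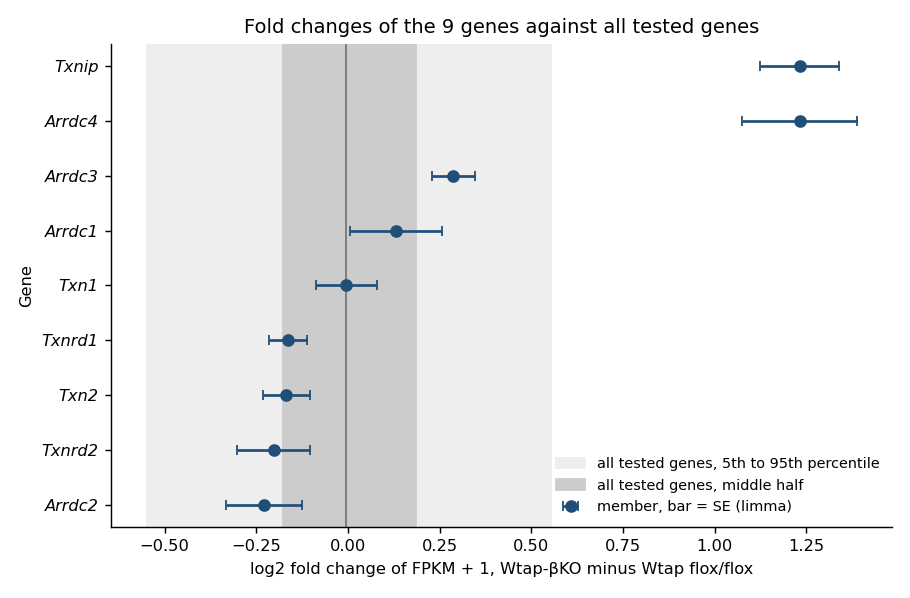
Log2 fold change of each member, libraries labelled Wtap-βKO minus Wtap flox/flox libraries, with its standard error, over pale and darker bands for the 5th to 95th and the 25th to 75th percentiles of all tested genes. Txnip and Arrdc4 at 1.23 lie beyond the pale band, and the other 7 members lie within it.

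The other members lie on other chromosomes, all on GRCm38. Arrdc1 is at chr2:24925352-24935252 (minus strand), Arrdc2 at chr8:70835129-70839720 (minus), Arrdc3 at chr13:80883384-80896042 (plus) and Txn1 at chr4:57943373-57956411 (minus). Txn2 is at chr15:77915047-77929006 (minus), Txnrd1 at chr10:82833951-82897712 (plus) and Txnrd2 at chr16:18426384-18479073 (plus). The fewest reads in 1 library were 190, for Txnrd2, and 207, for Arrdc2, and the values of these genes are the least precise of the 9.

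All 9 members passed the filter on low values, a mean of at least 0.5 FPKM over the 6 libraries. At an adjusted p under 0.05 in the fit over all genes, Txnip, Arrdc4 and Arrdc3 were called higher, against 8.77% of all genes tested. None of the other 6 was called, against 11.3% of all genes called lower. Groups did not overlap with libraries labelled Wtap-βKO above for 3 members, against 19.1% of all genes, and with them below for 3 members, Txn2, Txnrd1 and Txnrd2, against 22.1%. Since this contrast chose the members, nothing is read from these counts. The median log2 fold change was -0.0045 over the 9 members and -0.0054 over all genes tested, and the 5th and 95th percentiles of all genes were -0.55 and 0.55. Arrdc3 lost its call in 4 of 19 alternatives, those without replicate 3 labelled Wtap-βKO and without each Wtap flox/flox replicate, and its log2 fold change lay between 0.25 and 0.31 over the 6 fits with a library left out.

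Markers of several cell types moved with these differences. Of the 10 β-cell markers 8 fell by limma, while 4 of 6 α-cell markers, 2 of 5 δ- and PP-cell markers and 4 of 7 mesenchymal markers rose. Over all genes tested, 11.3% were called lower and 8.77% higher. Of 5 lymphocyte and plasma cell markers, the antibody genes Igkc, Igha and Jchain rose, whereas the B-cell gene Cd79a fell to 2.49 ± 1.08 FPKM in libraries labelled Wtap-βKO, against 8.06 ± 0.302 FPKM in Wtap flox/flox libraries (adjusted p = 0.00428 by limma). The 6 α-cell markers summed to 33763 to 44610 FPKM in libraries labelled Wtap-βKO and 21220 to 25431 FPKM in Wtap flox/flox libraries. Most of each sum came from Gcg, which was not called (adjusted p = 0.0890 by limma). The lymphocyte and plasma cell markers, most of whose FPKM came from Igkc and Igha in libraries labelled Wtap-βKO, summed to 66.7 to 76.8 FPKM in libraries labelled Wtap-βKO and 12.9 to 16.2 FPKM in Wtap flox/flox libraries. Of acinar markers 2 of 8 rose, and of ductal, endothelial, macrophage and glial markers 1 each of 6, 7, 7 and 4. No marker of any list was at 0 in all libraries. The part of the cell mix in the levels of Txnip, Arrdc4 and the other members was not tested.

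The genes whose profile over the 6 libraries was most like that of Txnip were sought among 7306 genes with a mean of at least 5 FPKM. The measure was the root mean square difference of log2(FPKM + 1), each gene centred on its own mean. The nearest was Ppp1r3c, a glycogen-targeting subunit of protein phosphatase 1, with 7.80 ± 1.16 FPKM in libraries labelled Wtap-βKO and 2.57 ± 0.609 FPKM in Wtap flox/flox libraries and a difference of 0.0933. Next came Thbs3, a thrombospondin, at 0.117, Sh3bp4, an endocytic adaptor, at 0.118, Hspb1, a small heat shock protein, at 0.120, Il1r2, the decoy receptor of interleukin 1, at 0.121, and Mum1l1 at 0.147. Arrdc4 stood at place 14 with 0.166. This likeness describes 6 libraries, and any gene with a similar difference between the 2 groups comes close to Txnip by it. Thbs3 shares bases with Mtx1 on the other strand.

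**Figure D4:**
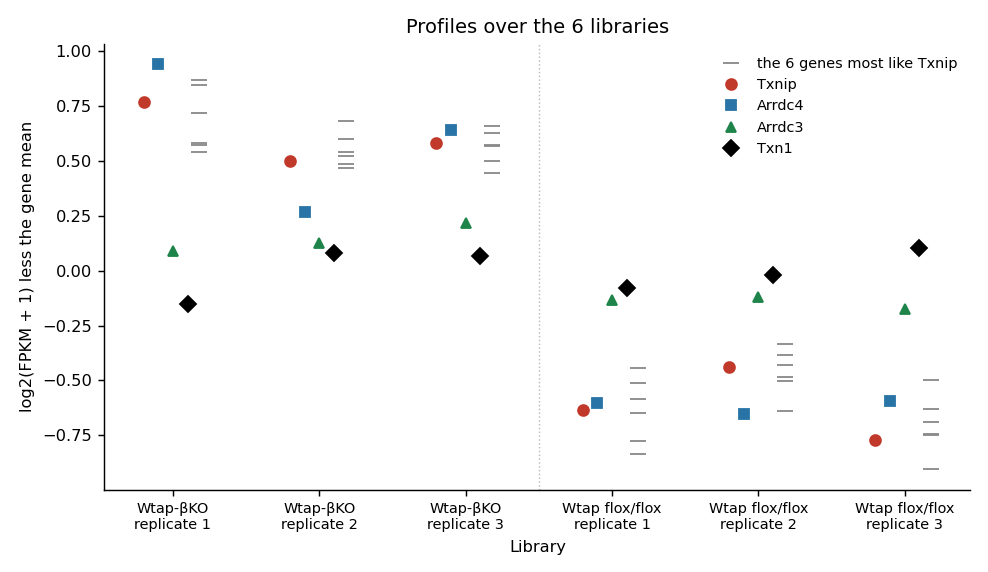
Log2(FPKM + 1) less the gene's own mean in each of the 6 libraries for Txnip, Arrdc4, Arrdc3 and Txn1, with the 6 genes most like Txnip as grey dashes. Txnip, Arrdc4 and the grey dashes are above 0 in the 3 libraries labelled Wtap-βKO and below 0 in the 3 Wtap flox/flox libraries, while Txn1 stays near 0.

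Around Txnip, 19 genes that act on its transcription or turnover were tested, of which 5 fell and 1 rose (median log2 fold change -0.05, against -0.0054 over all genes). Over all genes tested, 11.3% were called lower and 8.77% higher. Atf5, a stress-response factor of β cells, fell to 20.1 ± 8.88 FPKM in libraries labelled Wtap-βKO, against 62.9 ± 1.33 FPKM in Wtap flox/flox libraries (log2 fold change -1.68, limma adjusted p = 0.00580). Atf4, its relative in the integrated stress response, fell to 103 ± 0.728 FPKM in libraries labelled Wtap-βKO, against 127 ± 0.604 FPKM in Wtap flox/flox libraries (log2 fold change -0.30, adjusted p = 0.00661 by limma). Ddit3, which encodes CHOP, and Itch, the ubiquitin ligase that marks TXNIP for degradation, also fell, by 0.57 and 0.28 on the log2 scale. Ern1, which encodes the endoplasmic reticulum stress sensor IRE1α, rose (log2 fold change 0.28). The genes for ChREBP, MondoA and MLX did not pass the test. Mlxipl, which encodes ChREBP, averaged 70.1 ± 6.06 FPKM in libraries labelled Wtap-βKO and 87.9 ± 9.995 FPKM in Wtap flox/flox libraries (log2 fold change -0.32, adjusted p = 0.0635 by limma). Its groups did not overlap, with the libraries labelled Wtap-βKO below, as for 22.1% of all genes tested. Mlxip, which encodes MondoA, averaged 13.0 ± 1.23 FPKM in libraries labelled Wtap-βKO and 12.2 ± 0.676 FPKM in Wtap flox/flox libraries. Mlx averaged 16.9 ± 2.01 FPKM in libraries labelled Wtap-βKO and 19.4 ± 1.56 FPKM in Wtap flox/flox libraries. With a library left out, 2 to 6 of the 19 were called lower and 0 to 1 higher, and by limma voom 7 lower and 2 higher. Ern1 lost its call without Wtap flox/flox replicate 1, and Ddit3 without replicate 1 labelled Wtap-βKO or Wtap flox/flox replicate 2.

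Txnip and Arrdc4 were set beside 13 tested genes known as targets of ChREBP or MondoA, mostly in liver. Of the 13, 3 rose and 4 fell, against 8.77% higher and 11.3% lower over all genes (median log2 fold change -0.08). The G6pc2 gene, a β-cell glucose-6-phosphatase subunit that is also one of the β-cell markers, fell to 418 ± 37.4 FPKM in libraries labelled Wtap-βKO, against 1018 ± 143 FPKM in Wtap flox/flox libraries (log2 fold change -1.28, adjusted p = 0.00114 by limma). Pklr, the classical ChREBP target that encodes liver-type pyruvate kinase, fell to 2.83 FPKM in libraries labelled Wtap-βKO, against 5.56 FPKM in Wtap flox/flox libraries (log2 fold change -0.78, adjusted p = 0.00203). The lipogenic genes Acaca and Fasn fell by 0.38 and 0.31 on the log2 scale. Rgs16, a regulator of G-protein signalling, Tm6sf2 and the transcription factor gene Klf10 rose, with log2 fold changes of 0.71, 0.45 and 0.31. With a library left out, 0 to 4 were called higher and 3 to 5 lower, and Tm6sf2 lost its call without replicate 1 labelled Wtap-βKO or without Wtap flox/flox replicate 2 or 3.

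**Figure D5:**
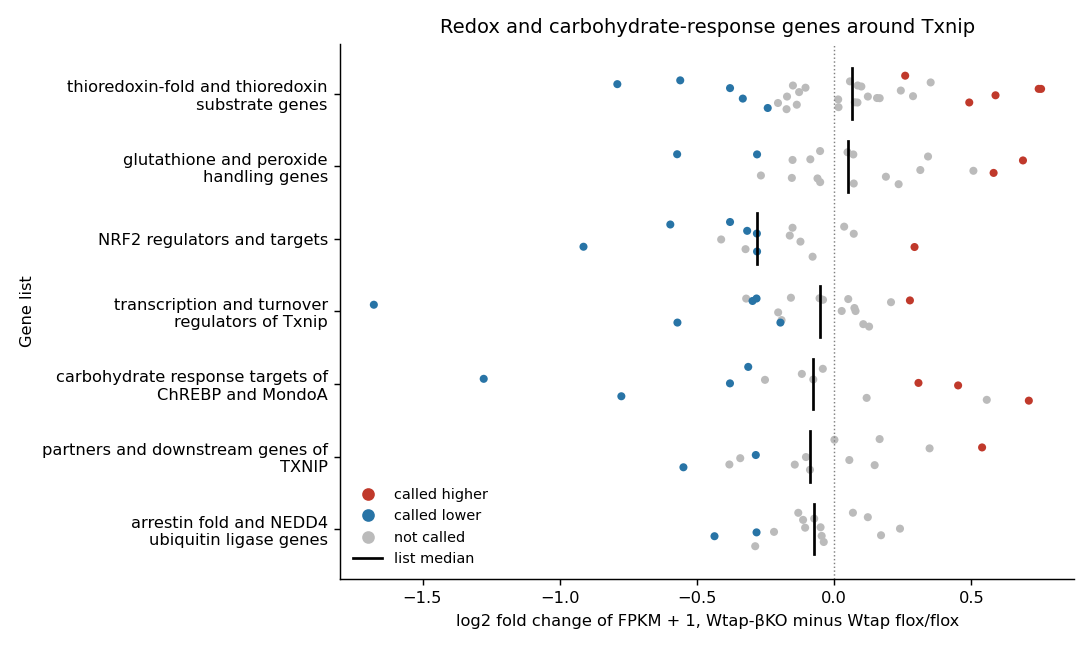
Log2 fold changes, libraries labelled Wtap-βKO minus Wtap flox/flox libraries, of the tested genes of 7 lists around Txnip and thioredoxin, with red for genes called higher, blue for genes called lower, grey for the rest and a line at the list median. In each list but that of the arrestin fold and NEDD4 ligases, called genes lie on both sides of 0.

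Of 30 genes with a thioredoxin fold or whose proteins are reduced by thioredoxin, 5 rose and 5 fell (median log2 fold change 0.07). Shares over all genes tested were 8.77% higher and 11.3% lower. Prdx4, the peroxiredoxin of the endoplasmic reticulum, rose to 15.0 ± 0.553 FPKM in libraries labelled Wtap-βKO, against 8.55 ± 0.296 FPKM in Wtap flox/flox libraries (log2 fold change 0.75, adjusted p = 0.000580 by limma). Prdx3, the mitochondrial peroxiredoxin that Txn2 serves, fell by 0.24 on the log2 scale. Txnl4a, a spliceosome component with a thioredoxin fold, rose to 12.2 FPKM in libraries labelled Wtap-βKO, against 6.80 FPKM in Wtap flox/flox libraries (log2 fold change 0.75, adjusted p = 0.00105). Glrx, glutaredoxin 1, fell to 3.58 ± 0.0654 FPKM in libraries labelled Wtap-βKO, against 6.92 ± 0.348 FPKM in Wtap flox/flox libraries (log2 fold change -0.79, adjusted p = 0.000739). Txnl1, a thioredoxin-like protein of the proteasome, fell to 33.6 FPKM in libraries labelled Wtap-βKO, against 50.02 FPKM in Wtap flox/flox libraries (log2 fold change -0.56, adjusted p = 0.00168). Msrb2, Nxn and Txndc12 also rose, and Srxn1 and Rrm2b also fell. With a library left out, 3 to 5 were called higher and 2 to 4 lower, and with FPKM scaled to total recovered reads 8 were called higher and 2 lower.

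Among 19 tested genes of glutathione and peroxide handling, the parallel system, 2 rose and 2 fell (median log2 fold change 0.05). Shares over all genes tested were 8.77% higher and 11.3% lower. Gpx3, the secreted glutathione peroxidase, rose to 597 ± 68.9 FPKM in libraries labelled Wtap-βKO, against 369 ± 23.4 FPKM in Wtap flox/flox libraries (log2 fold change 0.69, adjusted p = 0.00538 by limma). Mgst3 rose and Gstm1 and Gsr fell, with adjusted p-values of 0.0286, 0.0220 and 0.0329 that reached 0.0904, 0.0749 and 0.105 with a library left out. Each of the 3 lost its call without replicate 3 labelled Wtap-βKO and without Wtap flox/flox replicate 2 or 3. Gstm1 and Gsr lost it also without replicate 1 labelled Wtap-βKO, and Mgst3 and Gstm1 without Wtap flox/flox replicate 1. Txnrd1 belongs with the genes that NRF2 regulates. Of 15 tested genes of NRF2 and its targets, 6 fell and 1 was called higher, against 11.3% lower and 8.77% higher over all genes. The 1 called higher was Nfe2l2, which encodes NRF2, close to the threshold (adjusted p = 0.0488 by limma, median log2 fold change of the list -0.28). The call of Nfe2l2 was lost in 8 of 19 alternatives, among them the fits without replicate 1 or 3 labelled Wtap-βKO and without each Wtap flox/flox replicate. Nqo1, its classical target, fell to 0.933 ± 0.219 FPKM in libraries labelled Wtap-βKO, against 2.63 ± 0.195 FPKM in Wtap flox/flox libraries (log2 fold change -0.91, adjusted p = 0.00310). Tkt, transketolase, fell to 7.29 FPKM in libraries labelled Wtap-βKO, against 11.5 FPKM in Wtap flox/flox libraries (log2 fold change -0.60, adjusted p = 0.00519). Srxn1, Mafg, Gsr and Bach1, which encodes a repressor of NRF2 targets, fell by 0.28 to 0.38 on the log2 scale, and 2 to 6 genes of the list were called lower with a library left out. Scaled to total recovered reads, 2 genes of the list were called lower, and Mafg, Gsr and Bach1 lost their calls there and without replicate 1 or 3 labelled Wtap-βKO. Over all 19 alternatives Mafg lost its call in 6, Bach1 in 7 and Gsr in 8. These included fits without Wtap flox/flox replicate 1 or 2 for Mafg, 1 or 3 for Bach1 and 2 or 3 for Gsr.

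Of 13 tested partners and downstream genes of TXNIP, 1 rose and 2 fell (median log2 fold change -0.09). Shares over all genes tested were 8.77% higher and 11.3% lower. Ddit4, also called REDD1 and a partner of TXNIP, rose to 144 ± 23.6 FPKM in libraries labelled Wtap-βKO, against 98.0 ± 4.18 FPKM in Wtap flox/flox libraries (log2 fold change 0.54, adjusted p = 0.0196 by limma, up to 0.0673 over the alternatives). It lost its call without replicate 1 labelled Wtap-βKO and without each Wtap flox/flox replicate. Cdkn1b, the cell-cycle inhibitor p27, and Gsdmd, the pore-forming gasdermin, fell by 0.29 and 0.55 on the log2 scale, and Gsdmd lost its call without Wtap flox/flox replicate 1 or 2. Slc2a1, the glucose transporter GLUT1 that TXNIP draws into the cell, averaged 3.78 ± 0.656 FPKM in libraries labelled Wtap-βKO and 5.20 ± 0.413 FPKM in Wtap flox/flox libraries, which missed the threshold (log2 fold change -0.38, adjusted p = 0.0606, 0.0283 to 0.168 over the alternatives). Nlrp3, the inflammasome sensor that TXNIP binds, averaged 0.173 FPKM in libraries labelled Wtap-βKO and 0.0429 FPKM in Wtap flox/flox libraries and was below the filter.

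The last list held 15 tested genes with an arrestin fold, for NEDD4-type ligases or for budding factors. Of these, 2 fell, Pdcd6ip (log2 fold change -0.44, adjusted p = 0.00894 by limma) and Itch (log2 fold change -0.28, adjusted p = 0.0161 by limma, up to 0.0659 over the alternatives). By limma 0 rose, and 0 were higher at an unadjusted p under 0.05 or by limma voom. Over all genes tested, 11.3% were called lower and 8.77% higher. Pdcd6ip encodes ALIX, a budding factor that binds arrestin-domain proteins. Itch lost its call without replicate 3 labelled Wtap-βKO, without Wtap flox/flox replicate 2 or 3, and with FPKM scaled to total recovered reads. Wwp2, another ligase of the NEDD4 type, averaged 5.29 ± 0.477 FPKM in libraries labelled Wtap-βKO and 6.67 ± 0.519 FPKM in Wtap flox/flox libraries, short of the threshold (adjusted p = 0.0560, 0.0151 to 0.178 over the alternatives). Nedd4 averaged 41.3 ± 3.68 FPKM in libraries labelled Wtap-βKO and 48.1 ± 1.54 FPKM in Wtap flox/flox libraries, which missed it too (adjusted p = 0.0813, 0.0369 to 0.361 over the alternatives).

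Since the Wtap-βKO label concerns an m6A writer, the members' transcripts were searched for GGACT, the most common form of the m6A motif, in the longest coding transcript of GENCODE M21. Txnip held 3 in 2827 bases, 1.06 per kilobase, beside a median of 1.05 and quartiles of 0.643 and 1.52 over 12692 tested genes. Arrdc4 held 1.28 per kilobase, Txn1 0.951, Arrdc2 0.849, Txnrd1 0.552, Txn2 0.488 and Arrdc3 0.244. Txnrd2 had the highest density of the 9, 1.74 per kilobase, and Arrdc1 held none. Txnip and Arrdc4 both lay between the quartiles, and methylation itself was not measured.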

How the data were processed

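Islet poly-A RNA was measured in 6 samples. The authors deposited FPKM per gene with gene lengths, per the file headers; the submitters' processing notes name CASAVA, HISAT2 2.0.5, featureCounts 1.5.0-p3, DESeq2 1.20.0, GRCm38 and mm10, with no role or order. Each FPKM times gene length, multiplied by a library size implied for the sample, was a whole number of reads, within 0.01 read, for 100% of values. That implied size was 1.04 to 1.07 times the recovered reads in libraries labelled Wtap-βKO and 0.952 to 0.988 times in Wtap flox/flox libraries, so the deposited scale differs between the groups. Samples of a group differed by more than counting noise (chi-square per degree of freedom 5.38 to 18.1). The highest values, 18.1 and 17.2, were those of the pairs with replicate 2 labelled Wtap-βKO, against 5.41 for replicates 1 and 3 so labelled.

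The deposited FPKM were used without rescaling. Genes with a mean of at least 0.5 FPKM, 15927 of 54532, entered limma 3.58.1 in R 4.3.3 (lmFit, eBayes with a variance trend) on log2(FPKM + 1), with a two-sided test, Benjamini-Hochberg adjustment over these genes and a threshold of 0.05; this fit gave every adjusted p. The log2(FPKM + 1) scale understates changes of low genes. Folds are ratios of mean FPKM, the libraries labelled Wtap-βKO over Wtap flox/flox libraries, and SE is moderated by limma. The labels call the samples biological replicates.

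Members and lists were chosen with earlier results of these data known. Named genes were the 9 members, Wtap, up to 4 genes per list, those of smallest adjusted p among genes with a mean of at least 1 FPKM, and the 6 genes most like Txnip, leaving out predicted genes and pseudogenes. Further genes, such as Mlxipl, Mlxip, Mlx, Nlrp3, Prdx3 and the remaining called genes of a list, were named after their values were seen. Promoter windows existed for all 9 members. A few results are not reported here. The script was tested on simulated data. Python 3.11.15, pandas 2.3.3 and matplotlib 3.10.9 were used. Alternatives were other scalings, pseudocounts, filters and variance trends, voom on recovered reads, the replicate block, protein-coding genes alone and each sample left out.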

Additional observations from a re-analysis of the deposited data

How the results depend on the processing

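Txnip kept its direction and its call in 19 of 19 alternatives, with log2 fold changes from 1.15 to 1.34, and so did Arrdc4, from 1.07 to 1.41. The alternatives reuse the libraries whose contrast chose the members. Nothing is therefore read from member calls kept, lost or gained over them, and only the range of the values is described. Of the members that were not called, Txn1 lay between -0.05 and 0.11 over the alternatives, and Arrdc1 between 0.005 without replicate 2 labelled Wtap-βKO and 0.24 without replicate 3 so labelled. Txnrd2 was -0.12 without replicate 3 labelled Wtap-βKO, beside -0.20, and also -0.12 when scaled to total recovered reads, where Arrdc1 was 0.24 and Arrdc2 -0.14. Arrdc2, Arrdc3, Txn2, Txnrd1 and Txnrd2 kept their direction in all alternatives run. Scaling to total recovered reads shifted the median of all genes by 0.09 and gave 2334 genes higher and 1094 lower in libraries labelled Wtap-βKO, beside 1397 and 1798. The share of called genes that were higher was then 68.1%, against 43.7% as reported, and 53.8% when rescaled without the 50 highest genes. Scaled to total recovered reads, the log2 fold change was 0.39 for Arrdc3, -0.063 for Txn2 and -0.056 for Txnrd1; Txnrd1 was -0.11 after quantile normalization and -0.13 when rescaled without the 50 highest genes. Leaving out each sample in turn gave 774 to 1379 genes higher and 1020 to 1834 lower; the counts were lowest without Wtap flox/flox replicate 2. Limma voom on the recovered reads called 1854 higher and 2244 lower. With the replicate number as a block (replicate block), 1148 genes were higher and 1490 lower, and Txnip stood at 1.23. Samples with the same number had correlations of 0.0293, 0.0377 and 0.0185 in their deviations, and each correlated best with its own number, so the numbers give only a hint of pairing. Depth limits the members least where Txnip has 7471 reads or more and most where Txnrd2 has 190.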

Other observations

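Besides Txnip, 9 tested genes carried a pair of CACGNG matches on the same strand, with 5 bases between them, in a RefSeq promoter window. Pairs on opposite strands were not searched for. Of these 3 were called higher in libraries labelled Wtap-βKO, Irak1bp1 (log2 fold change 0.34), Man2b2 (0.34) and Rbmxl1 (0.58), against 8.77% of all genes tested, and Fnip1 was called lower (log2 fold change -0.55), against 11.3%. The genes were found by this search after the data were seen, and with so few of them nothing is read from the count.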
